A study of Homo sapiens with 27 samples.

Results

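The control libraries of LNCaP95 were compared with the control libraries of LNCaP, both carrying CTRL sh, a non-targeting short hairpin RNA (shRNA). The 6 libraries, 3 of each line, were chosen by their cell line and shRNA labels from the 27 libraries of a study of CPSF1, the largest protein of the complex that reads the poly(A) signal, in prostate cancer cells. The other libraries carried an shRNA against CPSF1 or came from the 22Rv1 line. LNCaP is a hormone-sensitive human prostate cancer line, and LNCaP95 is an androgen-independent line derived from it. LNCaP cells were grown in RPMI 1640 medium and LNCaP95 cells in RPMI 1640 medium free of phenol red, both with 10% fetal bovine serum. Both lines received the hairpin by lentivirus, were selected with puromycin, and were grown for 72 h before RNA was taken. The labels give a lower puromycin dose without naming its line, which may have been LNCaP95. Line and medium changed together, and possibly the dose, so their parts in any difference cannot be told apart.

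Androgens such as testosterone and dihydrotestosterone drive a set of genes in prostate luminal cells, among them KLK3, which encodes prostate-specific antigen. LNCaP95 cells were obtained by long culture of LNCaP without androgen and grow in its absence. Poly(A)-ClickSeq (PAC-seq) reads the junction of a transcript with its poly(A) tail, so its counts show both how much of a gene's RNA there is and in which part of the gene that RNA ends.

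Counts came in 4 tables, 1 each for reads that end in coding exons (CDS), in introns, in the 3′ UTR with 300 bases added to its end, and in the 10 kb beyond it. Over the 4 tables the LNCaP95 libraries held 7639445 to 9100287 reads and the LNCaP libraries 7831124 to 8942458. The 10 kb table was the shallowest, with 266208 to 330746 reads in LNCaP95 and 375548 to 445437 in LNCaP. Pearson correlations of log2 CPM (counts scaled to a common library total) in the 3′ UTR table were 0.969 to 0.981 between libraries of a line and 0.845 to 0.866 between lines. The p-values below measure the spread between these biological replicates. Differences are given as LNCaP95 over LNCaP, and a gene was called where edgeR's quasi-likelihood test gave a Benjamini-Hochberg adjusted p under 0.05. An SE given with a log2 change was the size of that change divided by the square root of its test's F statistic. It can be too small where 1 line has few reads.

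Of 11054 genes tested by their 3′ UTR reads, 2573 rose and 2576 fell in LNCaP95, 23.3% in each direction (46.6% called). For 54.5% of the genes the 3 LNCaP95 libraries and the 3 LNCaP libraries did not overlap. The fold change was above 2 for 1109 of the genes that rose and 1169 of those that fell. This even split depended on the scaling, since without TMM factors 3723 genes rose and 1773 fell and 67.7% of the calls were higher. The median log2 fold change of all tested genes was then 0.23 instead of 0.01, and values below are relative to the latter. In bulk libraries, fewer cells with a transcript and less of it per cell cannot be told apart.

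The largest differences were genes with 3′ UTR reads in 1 line and almost none in the other. Until regions are compared below, CPM and reads are of the 3′ UTR unless another region is named. BARX2, a homeobox transcription factor, had 41.0, 48.3 and 50.3 CPM in the LNCaP95 libraries and 0, 0 and 0 CPM in the LNCaP libraries. Its 3′ UTR interval is chr11:129321298-129322471, plus strand (hg19, as are all positions here). With no 3′ UTR read in LNCaP, its fold is a lower bound against a floor of 3 reads over the group, at least 193-fold higher. HMX1, another homeobox factor, was at least 150.0-fold higher, PREX1, a Rac guanine nucleotide exchange factor, at least 142-fold and RND3, an atypical small GTPase, at least 108-fold. Each had no 3′ UTR read in the LNCaP libraries. In introns, BARX2, PREX1 and RND3 had reads in every LNCaP library and HMX1 in some of them. LPL, lipoprotein lipase, had 986, 965 and 873 reads in the LNCaP95 libraries and 3, 0 and 0 in the LNCaP libraries, a ratio of 738 (95% counting interval 252 to 3580).

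DAPL1 had 427, 384 and 420.3 CPM in the LNCaP95 libraries and 2.79, 0.626 and 0.969 CPM in the LNCaP libraries (log2 fold change 8.20 ± 0.25 (SE), adjusted p = 2.73e-17). The lowest LNCaP95 library was far above the highest LNCaP library. HPGD, the dehydrogenase that inactivates prostaglandins, had 529, 682 and 535 CPM in the LNCaP95 libraries and 8.93, 2.29 and 1.70 CPM in the LNCaP libraries (log2 fold change 7.15 ± 0.29 (SE), adjusted p = 3.64e-15). TENM1, a teneurin of the cell surface, had 750.0, 772 and 860.1 CPM in the LNCaP95 libraries and 9.49, 11.5 and 10.2 CPM in the LNCaP libraries (log2 fold change 6.25 ± 0.16 (SE), adjusted p = 1.86e-18). The groups did not overlap for either gene. TRIB2, a pseudokinase, rose by 6.90, LOX, lysyl oxidase, by 7.35, and SOHLH2, a helix-loop-helix factor of germ cells, by 6.90 on the log2 scale. TMEM100, a membrane protein, had 122, 107 and 119 reads in the LNCaP95 libraries and 2, 0 and 0 in the LNCaP libraries, a ratio of 136 (95% counting interval 37.5 to 1130).

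In the other direction, BCHE, butyrylcholinesterase, had 0, 0 and 0 CPM in the LNCaP95 libraries and 63.3, 74.3 and 65.6 CPM in the LNCaP libraries, at least 363-fold lower in LNCaP95 (intervals within chr3:165490392-165545796, minus strand). S100A7, the calcium-binding protein psoriasin, was at least 230.0-fold lower, SLC16A7, the monocarboxylate transporter MCT2, at least 156-fold and FAM213A at least 137-fold. All had no 3′ UTR read in the LNCaP95 libraries. In other regions, every LNCaP95 library held S100A7 reads in the 10 kb beyond and SLC16A7 reads in introns, and 1 held FAM213A reads in the 10 kb beyond. MMP16, a membrane-type matrix metalloproteinase, had 0, 0 and 1 reads in the LNCaP95 libraries and 411, 594 and 491 in the LNCaP libraries. That is a ratio of LNCaP to LNCaP95 of 1910 (95% counting interval 342 to 75400). EFS, an adaptor of Src kinases, had a ratio of 479 (95% counting interval 132 to 3970), DNAJC15, a mitochondrial co-chaperone, of 431 (95% counting interval 76.8 to 17100) and GPRIN2 of 298 (95% counting interval 82.1 to 2470) in the same direction.

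H2AFJ, a histone H2A variant, had 0, 0 and 6 reads in the LNCaP95 libraries and 1618, 1854 and 1470 in the LNCaP libraries (log2 fold change -9.95, adjusted p = 1.42e-16). NCAM2, a neural cell adhesion molecule, had 0, 0 and 4 reads in the LNCaP95 libraries and 453, 683 and 527 in the LNCaP libraries (log2 fold change -8.90, adjusted p = 2.17e-15). For both genes the few LNCaP95 reads came from replicate 3. LUZP2 fell by 6.60 and TCEA3, a transcription elongation factor, fell by 6.45 on the log2 scale.

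**Figure D1:**
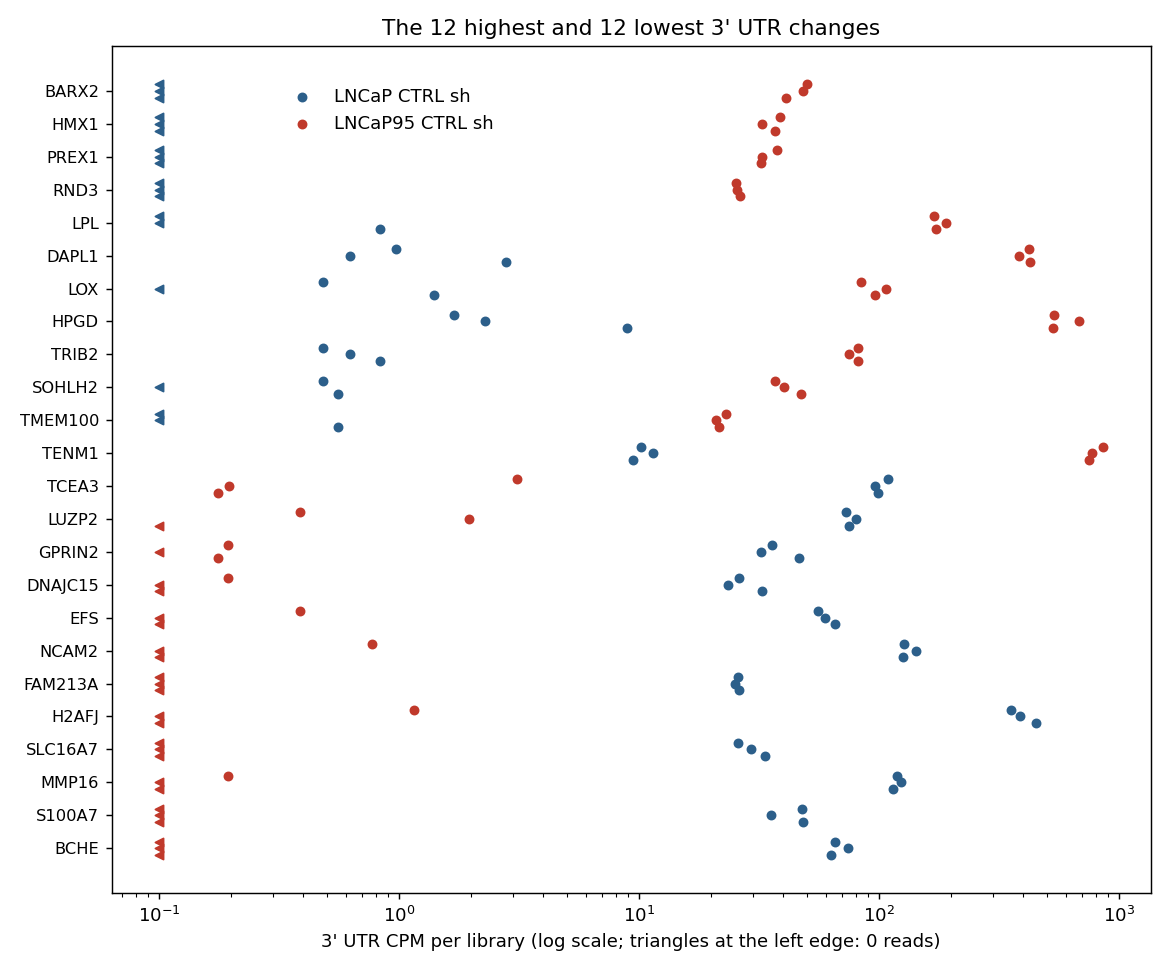
3′ UTR CPM of the 12 most raised and the 12 most lowered genes by the naming rule, on a logarithmic axis, 1 point per library (blue LNCaP, red LNCaP95, triangles at the left edge for 0 reads). Red and blue points are far apart in every row, as the rule required groups that do not overlap, and 8 genes have no 3′ UTR read in any library of 1 line.

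The share of all tested genes called in each direction, 23.3%, is the level against which the counts of each list below are read. To examine the androgen response, the genes that androgens induce were taken first. Of 26 tested androgen-induced genes, 13 rose and 6 fell, with a median log2 fold change of 0.29 beside 0.01 for all genes. KLK3 had 4094, 3678 and 4148 CPM in the LNCaP95 libraries and 1589, 1554 and 1710 CPM in the LNCaP libraries (log2 fold change 1.30 ± 0.10 (SE), adjusted p = 3.49e-10). FKBP5, a co-chaperone of steroid receptors, had 261, 253 and 269.9 CPM in the LNCaP95 libraries and 57.8, 54.7 and 48.2 CPM in the LNCaP libraries (log2 fold change 2.29 ± 0.14 (SE), adjusted p = 3.33e-12). TMPRSS2, a membrane serine protease, had 195, 240.1 and 195 CPM in the LNCaP95 libraries and 95.4, 141 and 124 CPM in the LNCaP libraries (log2 fold change 0.80 ± 0.15 (SE), adjusted p = 0.00011). Groups did not overlap for any of these 3 genes. The TMPRSS2 call by all reads of the gene was lost in 7 alternative fits, among them that of all 27 libraries. Further up were TRPM8, a cold-gated ion channel (3.64), ACSL3, an acyl-CoA synthetase (2.58), ELL2, an elongation factor (2.13), NDRG1 (2.04) and PMEPA1 (2.00). Down were KCNN2, a potassium channel, which had 2.82, 3.93 and 6.19 CPM in the LNCaP95 libraries and 57.8, 63.0 and 63.9 CPM in the LNCaP libraries (log2 fold change -3.84 ± 0.23 (SE), adjusted p = 4.42e-12), ALDH1A3, a retinal dehydrogenase (-3.05), the kinase CAMKK2 (-1.39), the sorbitol dehydrogenase SORD (-1.09) and the kallikrein KLK4 (-0.68). Several classical targets were not called, among them KLK2 at -0.04 and SLC45A3 at 0.03. The members of the list thus moved both ways.

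**Figure D2:**
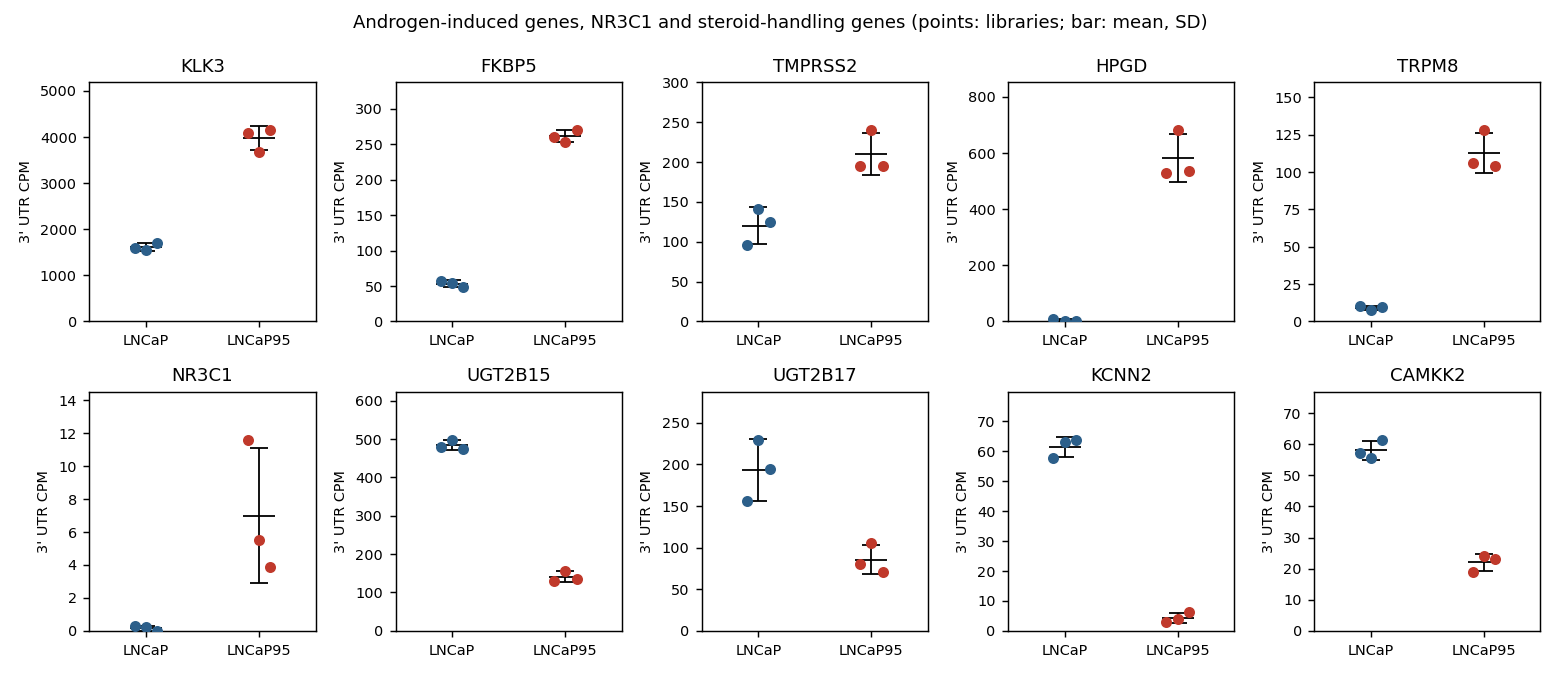
3′ UTR CPM of 10 androgen-induced, steroid-handling and receptor genes on linear axes that start at 0, 1 point per library, with the mean and SD of 3 libraries per line. KLK3, FKBP5, TMPRSS2, HPGD, TRPM8 and NR3C1 are higher in LNCaP95, UGT2B15, UGT2B17, KCNN2 and CAMKK2 are lower.

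Cofactors of steroid receptors and prostate lineage factors moved both ways. The pioneer factor FOXA1 fell by 0.59, the homeobox factor HOXB13 fell by 0.58 and the ETS factor SPDEF fell by 0.91. The coactivators NCOA3 and NCOA2 fell (log2 fold changes -1.20 and -1.58), while NCOA1 rose by 0.65. PIAS1, a SUMO ligase, rose by 1.36, the ETS factor ETV1 by 0.88 and GATA2 by 0.75.

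Of 23 tested nuclear receptors, 6 rose and 5 fell (median 0.16), near the 23.3% of all genes in each direction. NR3C1, the glucocorticoid receptor, a target of cortisol, had 66, 28 and 20 reads in the LNCaP95 libraries and 1, 1 and 0 in the LNCaP libraries in its 3′ UTR (chr5:142657196-142661453, minus strand). The ratio was 44.7 (95% counting interval 12.1 to 374), from a 3′ UTR level near the detection limit in LNCaP. Introns took 92.3, 96.6 and 100% of NR3C1 intron and 3′ UTR reads in LNCaP, and 45.9, 67.4 and 68.3% in LNCaP95. The log2 change of intron over 3′ UTR reads was -3.54 (edgeR, adjusted p = 0.0161). That call was lost without LNCaP replicate 2 and without LNCaP replicate 3. RORA, an orphan receptor tied to the circadian clock, rose by 3.10 and the immediate-early receptor NR4A1 by 2.54. The thyroid hormone receptor THRB fell by 1.67.

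Steroid conversion and glucuronidation genes were divided, with 6 of 18 higher and 6 lower (median −0.11). UGT2B15, which adds glucuronic acid to dihydrotestosterone and so inactivates it, had 131, 157 and 136 CPM in the LNCaP95 libraries and 480.1, 499 and 473 CPM in the LNCaP libraries (log2 fold change -1.78 ± 0.12 (SE), adjusted p = 4.76e-11). UGT2B17, with the same role, had 80.2, 106 and 71.1 CPM in the LNCaP95 libraries and 156, 229.9 and 194 CPM in the LNCaP libraries (log2 fold change -1.18 ± 0.16 (SE), adjusted p = 2.55e-06). Both were lower in every LNCaP95 library than in any LNCaP library. UGT2B10 fell by 1.17, whereas UGT2B11 rose by 1.12 and UGT2B28 by 0.54. These genes are near-identical neighbours on chromosome 4, and reads could be split between them. HSD11B2, which inactivates cortisol, rose by 2.18, and SRD5A3 of the 5α-reductase family by 1.43. AKR1C3, HSD3B1 and CYP17A1, enzymes of androgen synthesis, were too low to be tested.

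The labelled cell identity was checked against marker lists. Luminal epithelial markers were present in both lines, with 15 of 17 tested, 4 higher and 5 lower (median −0.20). Keratin 8 (KRT8) rose by 0.94 and keratin 19 (KRT19) by 2.62, keratin 18 (KRT18) was at 0.03, and E-cadherin (CDH1) fell by 0.46, a call lost without TMM factors. FOLH1, prostate-specific membrane antigen, rose by 0.73, and the splicing regulator ESRP2 fell by 1.91. Of 15 basal markers 4 were tested and ITGA6 rose (0.94), and KRT5, KRT14 and TP63 were below the filter. Of 26 neuroendocrine and neuronal markers 5 were tested and synaptophysin (SYP) rose (0.87), with CHGA and INSM1 below the filter. Of 22 mesenchymal markers 8 were tested (median 0.27). SNAI2 (3.85) and COL1A1 (1.21) rose, fibronectin (FN1) fell by 0.78, and TWIST1 had 0, 0 and 1 reads in the LNCaP95 libraries and 45, 72 and 52 in the LNCaP libraries. Of 16 leukocyte and endothelial markers CD68 alone was tested and was not called, and their summed level was 3.93 to 6.69 CPM in LNCaP95 and 6.47 to 7.53 CPM in LNCaP.

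Genes of oxygen sensing and glucose use were higher in LNCaP95. All 22 tested members of the hypoxia-induced list rose, beside 23.3% of all genes, with a median of 1.66. VEGFA, an angiogenic growth factor, had 586, 674 and 475 CPM in the LNCaP95 libraries and 95.7, 94.9 and 90.8 CPM in the LNCaP libraries (log2 fold change 2.62 ± 0.14 (SE), adjusted p = 5.01e-13). ANKRD37 had 167, 169 and 156 CPM in the LNCaP95 libraries and 7.53, 12.9 and 8.72 CPM in the LNCaP libraries (log2 fold change 4.05 ± 0.18 (SE), adjusted p = 2.92e-14). CA9, a membrane carbonic anhydrase, had 11.8, 35.4 and 9.09 CPM in the LNCaP95 libraries and 1.12, 0.626 and 0.484 CPM in the LNCaP libraries (log2 fold change 4.64 ± 0.56 (SE), adjusted p = 4.09e-07). The groups were separate for these 3 genes, and CA9 ranged from 9.09 to 35.4 CPM among the LNCaP95 libraries. The glucose transporter SLC2A1 rose by 2.00, the oxygen-sensing prolyl hydroxylase EGLN3 by 1.73 and the oxidoreductase ERO1L by 2.27. Oxygen in the cultures was not measured.

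Of 17 glycolytic genes, 12 rose and LDHB fell (median 0.83), and without TMM factors 15 rose and LDHB was no longer called. ENO1, an enolase, had 5296, 3897 and 3825 CPM in the LNCaP95 libraries and 1281, 1153 and 984 CPM in the LNCaP libraries (log2 fold change 1.93 ± 0.13 (SE), adjusted p = 2.09e-11). PGK1, phosphoglycerate kinase, had 6883, 6131 and 6465 CPM in the LNCaP95 libraries and 2101, 1742 and 1784 CPM in the LNCaP libraries (log2 fold change 1.79 ± 0.10 (SE), adjusted p = 2.18e-12). GPI, glucose-6-phosphate isomerase, had 1098, 1122 and 1190 CPM in the LNCaP95 libraries and 618, 675 and 622 CPM in the LNCaP libraries (log2 fold change 0.83 ± 0.11 (SE), adjusted p = 1.12e-06). Each LNCaP95 library exceeded each LNCaP library for these genes. Hexokinase 2 (HK2) rose by 3.17, LDHA by 1.10 and GAPDH by 0.83, LDHB fell by 0.42, and the muscle-type kinases PFKM and PKM were at 0.20 and 0.03. Of 30 subunits of oxidative phosphorylation 17 rose and the other 13 were not called, with a median of 0.36. Those that rose included NDUFB3 (1.08), NDUFA1 (0.98) and NDUFA2 (0.86) of complex I and ATP5B (0.55) of the ATP synthase.

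Of 34 sterol and fatty acid synthesis genes, 17 rose and 5 fell (median 0.43). INSIG1, a sterol-regulated brake on the pathway, rose by 1.68, the sterol carrier STARD4 by 1.76, the desaturase FADS2 by 1.26 and the sterol enzymes MSMO1 and SQLE by 1.32 and 0.98. ELOVL6, a fatty acid elongase, had 17.1, 16.9 and 23.8 CPM in the LNCaP95 libraries and 138, 127 and 116 CPM in the LNCaP libraries (log2 fold change -2.72 ± 0.17 (SE), adjusted p = 5.57e-12). TM7SF2, a sterol reductase, had 134, 106 and 148 CPM in the LNCaP95 libraries and 679, 594 and 641 CPM in the LNCaP libraries (log2 fold change -2.30 ± 0.14 (SE), adjusted p = 2.61e-12). Both fell against the direction of most of their list.

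**Figure D3:**
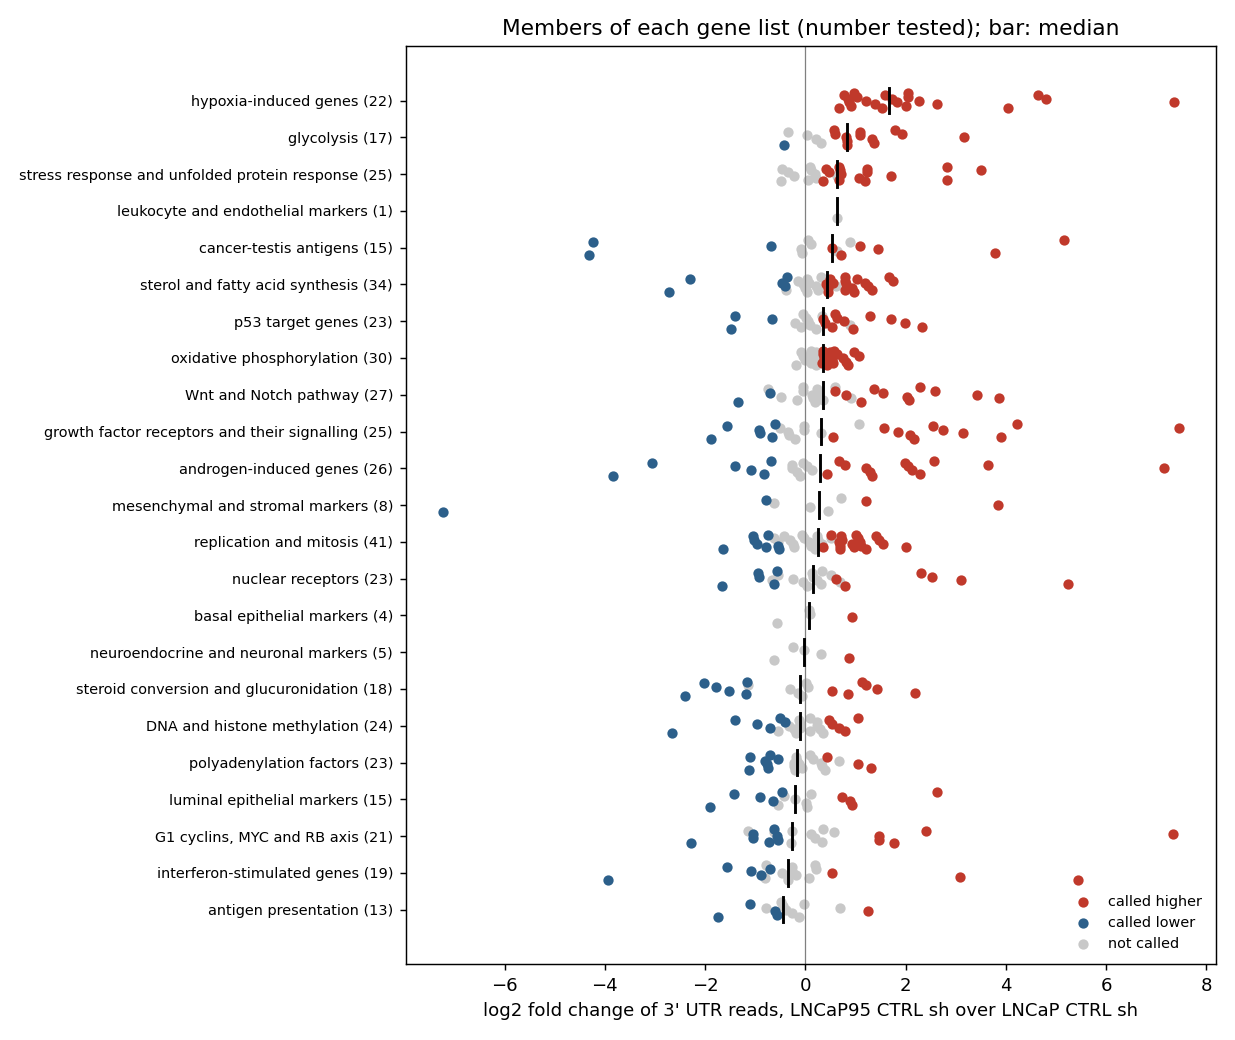
Log2 fold change of 3′ UTR reads for each tested member of the gene lists, ordered by list median (black bar). Red points were called higher in LNCaP95, blue lower, and grey points were not called. All points of the hypoxia list are red and right of 0, whereas most other lists hold both colours.

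Ribosomal protein genes, a family chosen by symbol after the values had been seen, were mostly lower in LNCaP95. They took 12.78, 12.24 and 12.72% of 3′ UTR reads in the LNCaP95 libraries and 27.24, 26.36 and 26.83% in the LNCaP libraries. The groups were far apart, and the two-sided exact permutation p was 0.1, the smallest that 3 against 3 libraries can give. Of 83 tested members 77 fell (92.8%, beside 23.3% of all genes) and 3 rose, with a median of −1.28 that ranged from −1.06 to −1.29 over the other scalings, tests and a block. RPS2, a small-subunit protein, had 7637, 5464 and 7618 CPM in the LNCaP95 libraries and 25848, 12940 and 22643 CPM in the LNCaP libraries (log2 fold change −1.57, adjusted p = 5.77e-08). RPL13, of the large subunit, had 3110, 2506 and 3162 CPM in the LNCaP95 libraries and 11068, 9064 and 9083 CPM in the LNCaP libraries (−1.73, adjusted p = 1.04e-11). RPLP0, of the stalk, had 3354, 2890 and 3271 CPM in the LNCaP95 libraries and 8270, 8354 and 7812 CPM in the LNCaP libraries (−1.36, adjusted p = 6.91e-11). RPL22, RPL26L1 and RPL10L rose, by 0.40, 0.68 and 2.55, and RPS27A, RPS27L and RPL23A were not called. Many of these genes have processed pseudogenes with nearly the same sequence, so single values are uncertain.

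**Figure D4:**
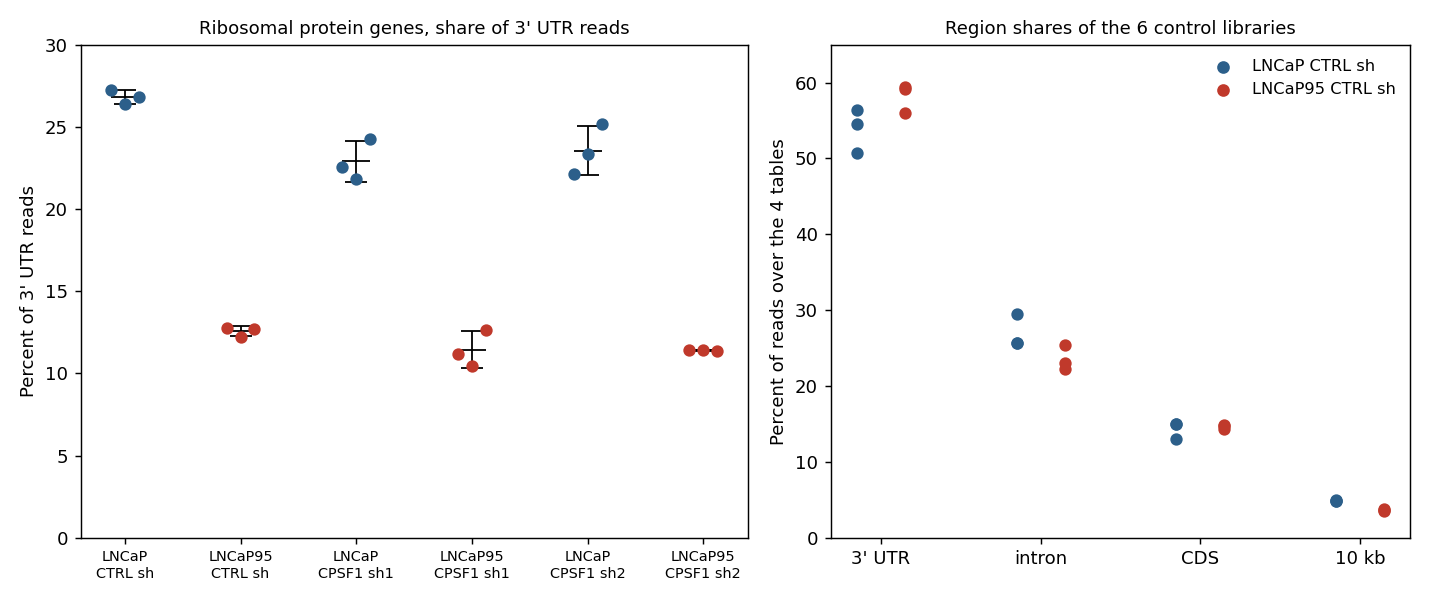
Left, percent of 3′ UTR reads in ribosomal protein genes in the control and CPSF1 shRNA libraries of both lines (points, libraries; bars, mean and SD of 3). Right, percent of reads over the 4 tables in each region for the 6 control libraries. The LNCaP95 libraries stay between 10.45 and 12.78% on the left, the LNCaP libraries between 21.85 and 27.24%.

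Stress and unfolded protein response genes were mostly higher, with 15 of 25 called up, the other 10 not called and a median of 0.64. DDIT3, the stress factor CHOP, had 558, 521 and 485 CPM in the LNCaP95 libraries and 43.8, 48.2 and 45.8 CPM in the LNCaP libraries (log2 fold change 3.50 ± 0.14 (SE), adjusted p = 2.17e-15). ATF3 had 50.5, 71.9 and 46.6 CPM in the LNCaP95 libraries and 8.09, 8.97 and 6.54 CPM in the LNCaP libraries (log2 fold change 2.83 ± 0.22 (SE), adjusted p = 3.56e-10). The groups did not overlap for either gene, whereas the chaperone HSPA5 was at 0.20 and was not called. Of 23 p53 targets, 11 rose and 3 fell (median 0.36). GDF15, a stress cytokine, had 10320, 9359 and 7991 CPM in the LNCaP95 libraries and 1781, 2110 and 1640 CPM in the LNCaP libraries (log2 fold change 2.32 ± 0.12 (SE), adjusted p = 1.57e-13). FAS rose by 1.98, the cell cycle inhibitor CDKN1A by 0.77 and the ubiquitin ligase MDM2 by 0.40, while SESN1 fell by 1.41, TP53INP1 by 1.48 and BAX by 0.67.

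Of 41 replication and mitosis genes, 18 rose and 8 fell (median 0.24). CDC20, which activates the anaphase-promoting complex, had 918, 739 and 820.4 CPM in the LNCaP95 libraries and 194, 198 and 227 CPM in the LNCaP libraries (log2 fold change 2.00 ± 0.13 (SE), adjusted p = 7.17e-12). The mitotic genes AURKA (1.55), TOP2A (1.47), CDK1 (1.40) and MKI67 (1.11) also rose. MCM4, of the replicative helicase, had 33.1, 36.0 and 36.3 CPM in the LNCaP95 libraries and 104, 109.7 and 115 CPM in the LNCaP libraries (log2 fold change -1.64 ± 0.15 (SE), adjusted p = 2.86e-09). The genes that fell were the replication and S-phase entry genes MCM2, MCM3, MCM4, MCM6, PCNA, CDC6, CDT1 and CCNE2. Of 21 genes of G1 control, 5 rose and 7 fell (median −0.26). Cyclin D1 (CCND1) fell by 1.05 and the inhibitor CDKN2A by 2.29, while the inhibitors CDKN1C and CDKN1B rose by 2.42 and 1.77. Cyclin D2 (CCND2) had 97, 97 and 81 reads in the LNCaP95 libraries and 0, 0 and 1 in the LNCaP libraries.

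In growth factor signalling, 11 of 25 genes rose and 6 fell (median 0.32). The receptors EGFR and IGF1R rose by 1.85 and 2.56, and ERBB2 and ERBB3 fell by 1.87 and 0.90. ERBB2 had 41.0, 41.1 and 51.6 CPM in the LNCaP95 libraries and 161, 172 and 157 CPM in the LNCaP libraries (log2 fold change -1.87 ± 0.14 (SE), adjusted p = 2.94e-10). The growth factor binding protein IGFBP3 rose by 3.14, and the ERK phosphatases DUSP6 and DUSP1 rose by 3.91 and 2.17. Of 27 Wnt and Notch pathway genes, 11 rose and 2 fell (median 0.36). HES1, a Notch target, had 72.0, 68.6 and 103 CPM in the LNCaP95 libraries and 6.42, 6.47 and 3.63 CPM in the LNCaP libraries (log2 fold change 3.87 ± 0.23 (SE), adjusted p = 3.84e-12). The Notch ligands DLL1 and JAG1 rose by 2.28 and 2.03, the Wnt receptor FZD4 by 3.43 and β-catenin (CTNNB1) by 1.38. FZD3 and FZD6 fell by 1.34 and 0.70.

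Interferon-stimulated genes were low in both lines, with 19 of 40 tested, 3 higher and 5 lower (median −0.34). BST2, tetherin, had 36.8, 27.3 and 33.6 CPM in the LNCaP95 libraries and 1.12, 0.834 and 0.242 CPM in the LNCaP libraries (log2 fold change 5.45 ± 0.36 (SE), adjusted p = 1.63e-11). IFITM2 had 3.70, 1.18 and 3.29 CPM in the LNCaP95 libraries and 40.5, 43.8 and 42.4 CPM in the LNCaP libraries (log2 fold change -3.93 ± 0.28 (SE), adjusted p = 5.25e-11). The members moved both ways, and IFITM3 rose by 0.53. Of 13 antigen presentation genes, B2M rose (1.26) and HLA-DMA, HLA-E, TAPBP and CALR fell (median −0.45). Of 15 cancer-testis antigens, 6 rose and 3 fell (median 0.53). PAGE1 had 218, 183 and 193 CPM in the LNCaP95 libraries and 6.97, 4.38 and 5.57 CPM in the LNCaP libraries (log2 fold change 5.15 ± 0.19 (SE), adjusted p = 1.11e-15), and MAGEA1 rose by 3.78 and XAGE1B by 1.09. CTAG1B had 0, 3 and 1 reads in the LNCaP95 libraries and 47, 6 and 11 in the LNCaP libraries, and it shares sequence with CTAG2.

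Of 24 genes of DNA and histone methylation, 5 rose and 6 fell (median −0.11), near the 23.3% of all genes in each direction, so the values of single members follow as a description. The DNA methyltransferases DNMT3A, DNMT3B and DNMT1 fell by 1.40, 0.97 and 0.71, and EZH2, the Polycomb methyltransferase, fell by 0.50, while EZH1 rose by 1.05. KDM6A, a histone demethylase, had 6.86, 11.8 and 10.4 CPM in the LNCaP95 libraries and 46.3, 80.9 and 56.4 CPM in the LNCaP libraries (log2 fold change -2.67 ± 0.23 (SE), adjusted p = 1.85e-09). Of 23 polyadenylation factors, 3 rose and 7 fell (median −0.16). CPSF1 had 92.6, 61.9 and 103 CPM in the LNCaP95 libraries and 172, 136 and 130.1 CPM in the LNCaP libraries (log2 fold change -0.76 ± 0.17 (SE), adjusted p = 0.000677, chr8:145618150-145618532, minus strand). The groups did not overlap, and no hairpin targeted CPSF1 in these libraries. CPSF2 fell by 1.10, SYMPK by 0.70 and WDR33 by 0.80, while FIP1L1 rose by 1.31 and the poly(A) polymerases PAPOLG and PAPOLA by 1.06 and 0.44.

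Which part of the gene the reads ended in was compared next. The 3′ UTR share was 58.2 ± 1.90% in LNCaP95 and 53.9 ± 2.89% in LNCaP (SD, n = 3 each, two-sided exact permutation p = 0.2), and the groups overlapped. Intron reads were 22.2, 23.0 and 25.4% in the LNCaP95 libraries and 29.5, 25.6 and 25.7% in the LNCaP libraries. The 10 kb reads were 3.63, 3.48 and 3.75% in LNCaP95 and 4.80, 4.98 and 4.88% in LNCaP. The intron and 10 kb groups did not overlap, with a two-sided exact permutation p of 0.1 each (0.2 after adjustment over 4 regions), the smallest this design allows. The 10 kb difference shrank from −1.26 to −0.47 percentage points without the 10 genes with most reads in each table. WFDC11 alone held 9.58% of 10 kb reads in LNCaP95 and 16.9% in LNCaP, and MTRNR2L12, a nuclear gene that resembles mitochondrial ribosomal RNA, held 16.9 and 18.6% of intron reads.

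In introns, 1538 genes rose and 1631 fell of 11932 (12.9 and 13.7%, 26.6% called), in CDS 626 and 639 of 4900 (12.8 and 13%, 25.8% called) and in the 10 kb regions 406 and 505 of 13390 (3.03 and 3.77%, 6.8% called). Groups did not overlap for 38.5, 39 and 21.8% of these genes. Without TMM factors the splits were 2741 and 747 in introns and 1056 and 235 in the 10 kb regions, where summed library sizes gave 265 and 508. By all reads of a gene, 3313 rose and 3310 fell of 13009 (25.5 and 25.4%, 50.9% called), or 4735 and 2177 without TMM factors.

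To separate where a transcript ends from how much of it there is, the reads of a region were set against the 3′ UTR reads of the same gene. The ratio of intron to 3′ UTR reads rose for 490 genes and fell for 363 of 8865 (5.53 and 4.09%, 9.62% called). The 10 kb ratio rose for 143 and fell for 117 of 9070 (1.58 and 1.29%, 2.87% called), and the CDS ratio rose for 12 and fell for 6 of 4581 (0.262 and 0.131%, 0.393% called). The split moved with the scaling, to 569 and 257 intron and 241 and 76 10 kb ratios without TMM factors, and to 277 and 695 and 133 and 343 with summed library sizes. Annotated 3′ ends of some genes named in these results, all holding a poly(A) signal, are shown by their last 30 bases. They were read on the gene's strand from the hg19 genome, with the signal AATAAA or ATTAAA in capitals. Among other genes named here, the ends of BHLHE40, TMPRSS2, UGT2B15, QRICH1, KCNMA1 and RPGRIP1L hold neither. Those of GPI, DAPL1, HERPUD1, NDUFA11, PPAP2B, ACAP3, ANKLE2, FAF1 and RPSAP58 hold neither as well. Of 11039 annotated ends of tested genes, 51.4% hold AATAAA in this window, 13.1% ATTAAA alone and 35.5% neither. The SMIM14 end is not an end in the newer annotation searched here.
KLK3 (chr19:51363991-51364020, plus strand): ctcacagaAATAAAgagctgttatactgtg
FKBP5 (chr6:35541362-35541391, minus strand): ttaAATAAAtccaaaaaaaatgtgacttcc
RORA (chr15:60780483-60780512, minus strand): cctatAATAAAacttcagcttctaatggaa
TRPM4 (chr19:49715064-49715093, plus strand): cactggggaAATAAAgccatttcagaggaa
SMIM14 (chr4:39547950-39547979, minus strand): tcgttcAATAAAcacttcaacaaattttta
H2AFJ (chr12:14930907-14930936, plus strand): aaagtaatgATTAAAgcttgtgaatctgaa

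TRPM4, a calcium-activated cation channel whose end carries AATAAA, had a larger share of its reads in introns in LNCaP95. Introns took 64.3, 66.3 and 59.1% in the LNCaP95 libraries and 10.2, 13.7 and 12.8% in the LNCaP libraries of its intron and 3′ UTR reads (log2 ratio change 3.83 ± 0.27 (SE), adjusted p = 4.41e-08). Its intron reads alone were not called (-0.08), whereas its 3′ UTR reads fell by 3.90. The annotation lists an end of the gene inside an intron at position 49663178, and which site was read is not in the counts. BHLHE40, a transcriptional repressor of the circadian clock, went the same way, with introns at 21, 22.3 and 26.7% in the LNCaP95 libraries and 3.64, 0 and 3.12% in the LNCaP libraries (log2 ratio change 4.07 ± 0.54 (SE), adjusted p = 6.82e-05). BCHE and SLC16A7, without 3′ UTR reads in LNCaP95, kept 25 and 49 intron reads there. TCEA3 also had a higher intron ratio (4.96), and MMP16 introns took 100, 100 and 96.6% in the LNCaP95 libraries and 68.2, 71.3 and 70.3% in the LNCaP libraries.

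RORA, whose end also carries AATAAA, went the other way. Introns took 37.3, 46.5 and 49.1% in the LNCaP95 libraries and 93.3, 92.7 and 96.1% in the LNCaP libraries (log2 ratio change -4.11 ± 0.33 (SE), adjusted p = 1.75e-07). Its 3′ UTR reads rose and its intron reads fell, by 1.01, so the tables gave opposite directions. A long noncoding RNA and several annotated ends of RORA lie in these introns on the same strand, and which was read is not in the counts. LPL, BARX2 and DAPL1 had lower intron ratios as well, with 25, 16 and 19 intron reads in LNCaP over 3 libraries, and the BARX2 call was lost without LNCaP replicate 3. DLG2, a synaptic scaffold, and PPAP2B, a lipid phosphatase, had lower ratios with at least 89.7% of reads in introns in every library. Pseudogenes lie in those introns on the same strand, and in PPAP2B also an annotated protein-coding gene. Among the androgen-response genes, FKBP5 introns took 28.2, 30.5 and 28% in the LNCaP95 libraries and 52.4, 51.8 and 52.4% in the LNCaP libraries (log2 ratio change -1.23 ± 0.21 (SE), adjusted p = 0.000955). The lower intron share of FKBP5 went with a rise in both regions, 2.29 in the 3′ UTR and 1.07 in introns. TMPRSS2 introns took 42, 27.6 and 37.4% in the LNCaP95 libraries and 68.2, 51 and 58% in the LNCaP libraries (log2 ratio change -1.20 ± 0.26 (SE), adjusted p = 0.00572), and the call was lost without LNCaP replicate 1. UGT2B15 introns took 35.1, 33.1 and 31.1% in the LNCaP95 libraries and 13.9, 14.9 and 14.6% in the LNCaP libraries (log2 ratio change 1.75 ± 0.21 (SE), adjusted p = 2.23e-05). For UGT2B15 the intron reads were not called (-0.03) and the 3′ UTR reads fell.

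Beyond the gene, SMIM14 had 558, 599 and 629 CPM in the LNCaP95 libraries and 0, 5.42 and 3.04 CPM in the LNCaP libraries in the 10 kb downstream of its 3′ UTR. The groups did not overlap (ratio of downstream reads 202 (95% counting interval 68.8 to 981), adjusted p of the change against the 3′ UTR = 1.17e-08), with 658 reads against 3. The same strand there also carries an annotated long noncoding RNA, so the reads need not be SMIM14 transcripts. H2AFJ had 25, 22 and 9 reads in the LNCaP95 libraries and 2, 0 and 0 in the LNCaP libraries downstream, where its 3′ UTR had almost none in LNCaP95 (ratio 25.8 (95% counting interval 6.81 to 218)). METAP1, a methionine aminopeptidase, had 17, 18 and 50 reads in the LNCaP95 libraries and 1, 0 and 0 in the LNCaP libraries, a ratio of 78.2 (95% counting interval 13.7 to 3130). BSG reads came mostly from 1 library (3, 29 and 3 in LNCaP95, 0 in LNCaP), and the call was lost without it and without any 1 of the LNCaP libraries. For GGT7 and ZBTB42 the ratio rose while the 3′ UTR reads fell, by 5.14 and 1.71, and the downstream reads were not called. On the same strand, HCN2 lies in the BSG region and a pseudogene in that of GGT7. The ZBTB42 call was lost in 5 of the 6 fits without 1 library.

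QRICH1 had 0, 0 and 0 reads in the LNCaP95 libraries and 9, 16 and 20 in the LNCaP libraries downstream, at least 16.3-fold lower in LNCaP95. Its region also holds IMPDH2 and DALRD3 on the same strand. FAF1 and ACAP3 had 0 downstream reads in LNCaP95 and 20 and 22 in LNCaP, and both calls were lost when single libraries were left out. The FAF1 region also holds a long noncoding RNA on the same strand and an annotated end of FAF1 itself. HTATIP2 (-4.71), with the neighbour PRMT3 in its region, ANKLE2 (-4.58) and the pseudogene RPSAP58, with 1 read against 85, were lower too. The RPSAP58 region holds 5 annotated ends of that gene, and pseudogenes lie on the same strand in the RPSAP58 and ANKLE2 regions. In coding exons, SSU72, a phosphatase of RNA polymerase, took 3.01, 2.91 and 2.82% in the LNCaP95 libraries and 0.508, 0.306 and 0.681% in the LNCaP libraries (log2 ratio change 2.79 ± 0.38 (SE), adjusted p = 0.00531). KCNMA1, a calcium-gated potassium channel, took 4.19, 4.38 and 3.93% in the LNCaP95 libraries and 22.6, 21.7 and 18.3% in the LNCaP libraries (log2 ratio change -2.37 ± 0.22 (SE), adjusted p = 0.000344). RPGRIP1L, a ciliary protein, took 7.35, 7.59 and 8.47% in the LNCaP95 libraries and 45.3, 36.8 and 36.4% in the LNCaP libraries (log2 ratio change -2.71 ± 0.26 (SE), adjusted p = 0.000344). The lower shares of KCNMA1 and RPGRIP1L went with 3′ UTR reads that rose by 2.93 and 1.61. The CDS reads of RPGRIP1L were themselves called lower. HERPUD1 and NDUFA11 were higher and FOLH1 was lower by the CDS ratio, and each lost the call when some single library was left out, as did SSU72 without LNCaP replicate 1.

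**Figure D5:**
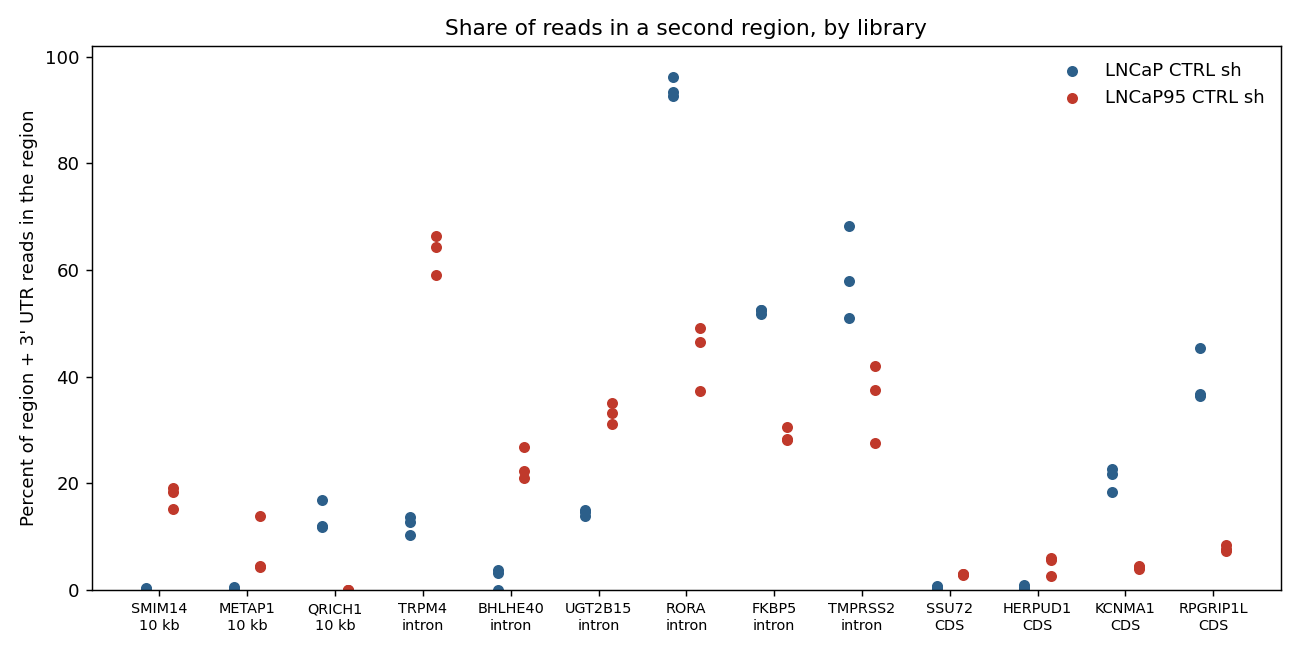
Percent of the reads of a region plus 3′ UTR that lie in the region (10 kb, intron or CDS, as under each name), 1 point per library, for the genes named. TRPM4 rises from 10.2 to 13.7% in LNCaP (blue) to 59.1 to 66.3% in LNCaP95 (red), RORA goes the other way, and the 10 kb shares are small in most genes.

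By position, against 23.3% of all genes in each direction and with no test of the spread, on chromosome 1 423 of 1139 tested genes rose and 158 fell (median 0.28), and on chromosome 19, 93 of 811 rose and 293 fell (median −0.29). Chromosomes 16 and 14 had medians of −0.30 and −0.29. Of 280 bins of 10 Mb ranked by median, the 3 highest and 3 lowest follow. The segment of chromosome 2 from 70000001 to 80000000 had 31 of 51 genes higher and 1 lower (median 0.80), HK2 among them. On chromosome 7 from 30000001 to 40000000, 17 of 26 rose and the rest were not called (0.76), and on chromosome 9 from 140000001, 17 of 23 fell and the rest were not called (−0.76). On chromosome X, 13 of 21 fell and 3 rose up to position 10000000 (−1.46), and 19 of 29 rose and 3 fell over the next 10 Mb (0.79). Up to position 10000000 the lower genes included SLC25A6, ZBED1, PLCXD1, CD99 and ASMTL, and NLGN4X, TBL1X and PNPLA4 rose. On chromosome 19 from 20000001 to 30000000, 14 of 20 fell and 1 rose (−1.11). The 14 lower genes were mostly zinc finger genes of 1 cluster with much shared sequence, such as ZNF430 and ZNF681, named after their values were seen. DNA copy number was not measured.

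The same lines were compared in the libraries with CPSF1 hairpins, which the comparison above did not use. Of the control calls in the 3′ UTR table that could be tested there, 87.5% had the same direction with CPSF1 sh1 and 88.3% with CPSF1 sh2, and 50.3 and 45.3% were called again in that direction. There 34.1% of 11363 and 28.1% of 11335 genes were called in either direction, and a test of the difference between control and hairpin libraries, added after the data had been seen, called 7.12 and 5.89%. HPGD was at 6.83 with CPSF1 sh1 and 6.62 with CPSF1 sh2, TENM1 at 5.49 with CPSF1 sh1 and 5.16 with CPSF1 sh2 and KLK3 at 1.88 with CPSF1 sh1 and 1.77 with CPSF1 sh2 on the log2 scale. The ribosomal protein share was 22.9 and 23.6% in LNCaP and 11.4% with each hairpin in LNCaP95. In the hypoxia list, 19 of 21 tested genes rose and 0 fell with CPSF1 sh1, and 10 of 21 rose and 1 fell with CPSF1 sh2. Oxidative phosphorylation genes were called higher in 1 of 30 and 3 of 30, with 0 and 1 lower. Sterol and fatty acid synthesis genes were called higher in 2 of 34 and 3 of 34, with 10 and 7 lower. Of 27 androgen-induced genes, 7 rose and 8 fell with CPSF1 sh1 and 9 rose and 8 fell with CPSF1 sh2 (medians −0.11 and −0.32). Of 23 p53 targets, 3 rose and 6 fell, and 3 rose and 7 fell. In glycolysis, 7 of 17 rose and 0 fell, and 5 of 17 rose and 1 fell. UGT2B15 was at 0.77 with CPSF1 sh1 and 1.32 with CPSF1 sh2 and FN1 at 1.36 with CPSF1 sh1 and 1.42 with CPSF1 sh2, both opposite to the control libraries. UGT2B17 was at 0.66 with CPSF1 sh1 and 1.56 with CPSF1 sh2, called higher with each, against -1.18 in the control libraries. TMPRSS2 was at -0.34 with CPSF1 sh1 and -0.92 with CPSF1 sh2, called lower with CPSF1 sh2 only, against 0.80 in the control libraries. FOLH1 was at -0.51 with CPSF1 sh1 and -0.43 with CPSF1 sh2, called lower with CPSF1 sh1 only.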

How the data were processed

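Raw counts, not normalized, were deposited by the authors, with 1 table per region. In their processing, PAC-seq reads were trimmed with the DPAC pipeline (version 1.2), mapped to GRCh37 (hg19) with HISAT2 2.1.0 and counted by strand at the 3′-most base with Subread 2.0.3. Counts were fitted per table with edgeR 4.0.16 (R 4.3.3, quasi-likelihood F-test, TMM factors, mean above 2 CPM, 3 against 3 libraries), and p-values were adjusted over all tested genes. Ratios were tested with library, region and region-by-line terms. Shares were compared by exact permutation. Alternatives were no TMM factors, summed library sizes, other filters, DESeq2 1.42.0, a replicate block, all 27 libraries and leaving out each library. Models were tested on simulated counts.

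Named genes were the 12 highest and 12 lowest 3′ UTR changes (at least 10 CPM, no overlap), the 2 highest and 2 lowest called members of each of 24 lists, 10 genes fixed by name and the leading ratios (6 per direction, 3 for CDS). Other genes were chosen after their values were seen. Members and lists were chosen with earlier results of these data known. Some of these items are not reported here. Genes of the Y chromosome and XIST were left out. Ends and neighbours were read from the hg19 genome and a newer Gencode annotation, in which 67.3% of the ends occur. Intervals and floors cover counting error only.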

Additional observations from a re-analysis of the deposited data

Results flagged for a closer look

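A test of the difference itself, a line-by-shRNA term in 1 edgeR fit over the 18 LNCaP and LNCaP95 libraries in the 3′ UTR table, was added after the data had been seen. It was called for 7.12% of 11054 genes with CPSF1 sh1 and 5.89% with CPSF1 sh2. Both terms share the control libraries. The genes fixed by name with a called term for each hairpin follow. CPM here were scaled over these 18 libraries, so the control values differ from those scaled over the 6 control libraries above.

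UGT2B15 had 504, 522 and 495 CPM in LNCaP control libraries, 143, 145 and 149.8 with CPSF1 sh1 and 95.2, 106 and 101 with CPSF1 sh2. In LNCaP95 it had 138, 167 and 144 CPM in control libraries, 221, 267 and 268 with CPSF1 sh1 and 246, 243 and 266 with CPSF1 sh2. The gene was thus lower in LNCaP95 in the control libraries and higher in LNCaP95 with either hairpin. The log2 line difference moved by 2.55 (adjusted p = 3.78e-09) and 3.09 (adjusted p = 7.7e-11). For UGT2B17, its near-identical neighbour, it moved by 1.84 (adjusted p = 0.00221) and 2.72 (adjusted p = 5.27e-05).

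The line difference of FKBP5 moved by -1.39 (adjusted p = 6.4e-05) and -1.01 (adjusted p = 0.00217). In LNCaP, FKBP5 had 60.6, 57.2 and 50.4 CPM in control libraries and 127, 129.6 and 136 with CPSF1 sh1, while in LNCaP95 it had 275, 269.5 and 286 and 270.2, 259 and 212. FKBP5 stayed higher in LNCaP95 with either hairpin. The line difference of TMPRSS2 moved by -1.14 (adjusted p = 0.0358) and -1.73 (adjusted p = 0.00233). TMPRSS2 had 205, 256 and 207 CPM in LNCaP95 control libraries and 31.9, 56.7 and 50.7 with CPSF1 sh2, and 100.2, 148 and 130.2 and 122, 71.4 and 69.3 in LNCaP.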

How the results depend on the processing

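Counts of called genes in the 3′ UTR table stayed within 1.5 times of the main counts in each of the 13 alternatives. The scaling mattered most elsewhere. Without TMM factors, 2741 genes rose and 747 fell in introns, 1056 rose and 235 fell in the 10 kb table, 2177 fell by all reads, and the 10 kb ratio rose for 241 and fell for 76. With summed library sizes, 398 rose in CDS and 265 in the 10 kb table, the 10 kb ratio fell for 343, the intron ratio rose for 277 and fell for 695, and the CDS ratio rose for 3 and fell for 3. A filter in every library gave 219 higher and 247 lower 10 kb ratios and 22 and 15 CDS ratios, and no filter gave 35 and 20 CDS ratios. With 1 library left out, 330 to 483 genes fell in the 10 kb table (main 505), and the 10 kb ratio rose for 48 to 125 and fell for 46 to 121. The intron ratio then rose for 206 to 443 and fell for 137 to 348, and the CDS ratio rose for 2 to 11 and fell for 3 to 7. The lowest ratio counts came without LNCaP replicate 3 for introns and the 10 kb region and without LNCaP replicate 1 for CDS. Fewer libraries were fitted in each of these.

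The difference in the share of reads in CDS, 0.295 percentage points, turned to −0.0044 as a median per gene, −0.120 and −0.110 without the 10 genes with most reads over all tables or in each table, and −0.373 without LNCaP replicate 2 (−0.373 to 0.630 with 1 library left out). With the 4 tables summed, the bin medians were 0.63 on chromosome 2, 0.48 on chromosome 7 and −1.26 on chromosome 19.

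Same replicate numbers did not pair the lines, with correlations of their deviations of 0.072, 0.132 and −0.043. With a replicate block, 2718 genes rose and 2767 fell in the 3′ UTR table, 1483 and 1619 in introns, 640 and 655 in CDS, 347 and 464 in the 10 kb table and 3406 and 3436 by all reads. The ratio models hold library terms, and with no replicate block the 10 kb ratio rose for 423 and fell for 458 and the CDS ratio for 47 and 29. The 10 kb table held the fewest reads.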
